A study of Caenorhabditis elegans with 40 samples.

Results

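The genes described here encode fatty acid desaturases and elongases of Caenorhabditis elegans, which build the long-chain fatty acids of membranes and fat stores. They were chosen by symbol, by a rule that uses no measured value but was written with earlier results of these data known, as the desaturase genes fat-1 to fat-7 and the elongase genes elo-1, elo-2 and elo-5. All 10 listed symbols were present among the 9532 genes of the RNA table. C. elegans makes its own polyunsaturated fatty acids. In that pathway the elongase ELO-2 extends palmitic acid, the stearoyl-CoA desaturases FAT-6 and FAT-7 turn stearic acid into oleic acid, and FAT-5 desaturates palmitic acid. FAT-2 then turns oleic acid into linoleic acid, FAT-1 makes omega-3 fatty acids, FAT-3, FAT-4 and ELO-1 carry the chain on towards arachidonic and eicosapentaenoic acid, and ELO-5 extends branched-chain fatty acids. The stearoyl-CoA desaturases are known to respond strongly to feeding, temperature and nuclear hormone receptors, and most of the pathway is known to be active in the intestine.

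RNA and ribosome footprints were measured in whole worms lacking 1 copy of a ribosomal protein gene, to ask how such losses alter gene expression. The large subunit genes lost were rpl-5 and rpl-33 and the small subunit genes rps-10 and rps-23, each as a null allele written (0)/+. The mutants were kept as heterozygotes over a balancer, that is, a chromosome changed so that it does not recombine with its partner, and were collected at day 4. Controls were wild type over the same balancer and were collected at day 3 and at day 4. The balancer was mIn1 for both rpl genes, tmC20 for rps-10 and tmC5 for rps-23. The sample labels write mc6 where the authors name mIn1, and both names were taken to mean the same balancer. All groups were untreated and grown on OP-50 bacteria. By the labels the day 3 controls and the mutants were L4 larvae and the day 4 controls pregravid adults. The RNA labels depart from this for replicate 2 of tmC20 and of tmC5 at day 4, which are called L4, and give no stage for replicate 1 of the rpl mutants. Every library came from whole animals, so that fewer cells of a type and less RNA per cell cannot be told apart.

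Of the 20 RNA columns, 17 were distinct. The columns headed rpl-5 and rpl-33 held the same counts and were used once, as the shared rpl pair. Which of these genotypes the pair came from cannot be told. Its values, and those over all mutants, therefore need not cover both rpl mutants. The tmC20 column of replicate 2 was the same for both days and was used once. The groups were therefore 2 libraries for each of the shared rpl pair, rps-10(0)/+ and rps-23(0)/+, and 4, 3 and 4 libraries for the mIn1, tmC20 and tmC5 controls, with 1017787 to 2384186 counts per library. Nothing in the labels says whether replicates came from separate cultures, though the authors describe their replicates as independent and biological. The p-values measure the spread between these libraries. All 16 listed oocyte and yolk genes, which mark the adult stage, were detected, and their summed level was 1968 and 15233 CPM (counts scaled to the library total) in the mIn1 day 3 libraries and 110465 and 106670 CPM in the mIn1 day 4 libraries. Against its label, tmC5 day 3 replicate 1 held 74434 CPM of these genes, while tmC5 day 4 replicate a held 3881 CPM. The 2 libraries headed tmC5 day 4 were not numbered, so the one labelled L4 could not be identified. In the mutants the sum ran from 4873 to 23943 CPM, within the control range.

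Levels are given as CPM after TMM scaling, an adjustment for differences in library makeup, and genes are compared with each other only per kilobase of annotated exon. On that scale fat-6 had the highest mean level in the 11 control libraries, 274 ± 83.5 CPM per kb (SD, n = 11), followed by fat-2 with 259 ± 63.8, elo-1 with 199 ± 31.8, fat-1 with 137 ± 19.2 and fat-7 with 126 ± 68. Below these lay fat-4 with a mean of 104 ± 24 CPM per kb, elo-5 with 70 ± 18.5, fat-3 with 68.9 ± 13.1, elo-2 with 61.2 ± 19.8 and fat-5 with 21.4 ± 8.37. Neighbouring means in this order differed by more than the SD of either gene in 3 places only, below elo-1, below fat-4 and above fat-5. In the 6 mutant libraries fat-6 and fat-2 again led, with 269.6 ± 209 and 236 ± 59.3 CPM per kb. The lowest mean in the mutants was that of elo-2, with 17 ± 6.99 CPM per kb, and that of fat-7 was 29.9 ± 7.82.

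**Figure D1:**
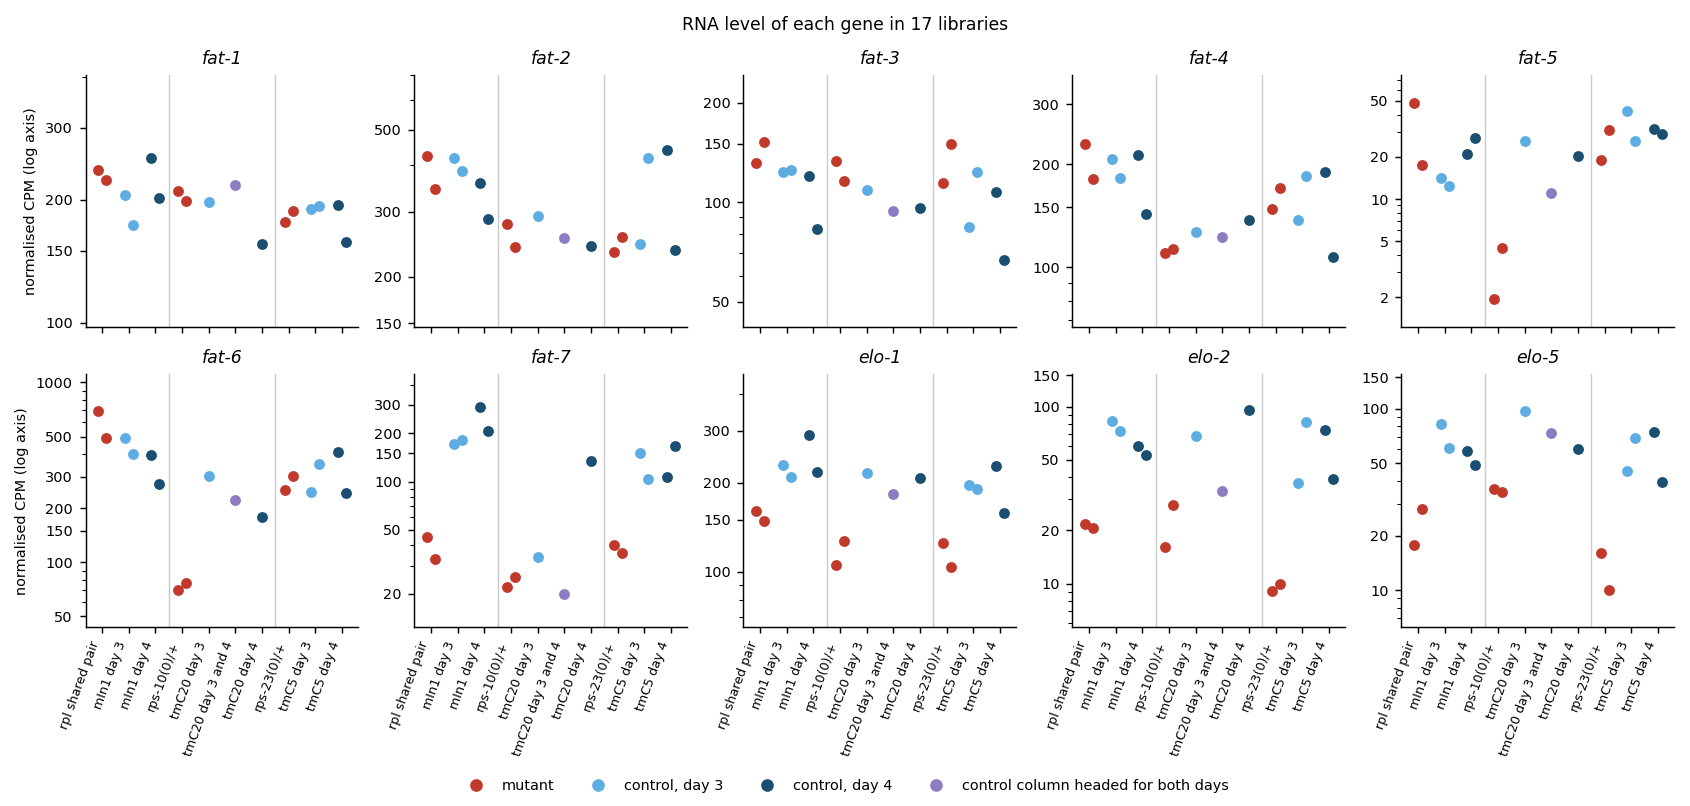
Normalised CPM (log axis) of each of the 10 genes in every distinct RNA library, arranged by group and coloured by mutant or control day. The 6 mutant libraries lie below all 11 control libraries for elo-2 and elo-5, whereas fat-5 and fat-6 are low in rps-10(0)/+ alone, at 1.95 and 4.48 CPM and at 69.9 and 77.2 CPM.

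In the WBcel235 assembly, 8 of the genes lie on chromosome IV and the other 2, fat-5 and fat-7, on chromosome V. Chromosome IV also holds rps-23 (12390298 to 12391053), the gene mutated in the rps-23(0)/+ animals, and any part of this linkage in the rps-23(0)/+ results was not tested. fat-3 and fat-4 are 796 bases apart and fat-1 and fat-2 are 5061 bases apart, each pair on 1 strand. fat-6 and fat-7 are close relatives. Of the 25-base windows of the longest annotated fat-7 transcript, 4.54% occur unchanged in that of fat-6, and the longest identical run is 44 bases, so that some short reads could be assigned to either gene. The stretch around that run is shown because short reads from it cannot all be told apart, with the 5 differing bases in capitals. It spans transcript bases 374 to 463 of fat-6 and 367 to 456 of fat-7.
fat-6 (chromosome IV): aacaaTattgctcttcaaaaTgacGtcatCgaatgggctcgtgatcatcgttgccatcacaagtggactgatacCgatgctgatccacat
fat-7 (chromosome V): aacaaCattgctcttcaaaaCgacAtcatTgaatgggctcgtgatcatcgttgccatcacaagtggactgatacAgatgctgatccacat

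The 250 bases before the annotated starts of elo-2, elo-5 and fat-7 are shown because RNA of these genes fell most over all mutants. elo-1, also called lower over all mutants, is not shown. The capitals mark TGATAA, the core bound by intestinal GATA factors, on either strand. The sequences are from the RefSeq copy of WBcel235 and the gene starts from its Ensembl annotation.
elo-2 (chrIV:17467409-17467658, minus strand): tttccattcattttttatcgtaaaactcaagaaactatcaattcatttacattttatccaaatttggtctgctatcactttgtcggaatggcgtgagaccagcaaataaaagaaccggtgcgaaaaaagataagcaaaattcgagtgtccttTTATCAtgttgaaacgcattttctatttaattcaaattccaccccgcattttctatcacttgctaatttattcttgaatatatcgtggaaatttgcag
elo-5 (chrIV:5377118-5377367, minus strand): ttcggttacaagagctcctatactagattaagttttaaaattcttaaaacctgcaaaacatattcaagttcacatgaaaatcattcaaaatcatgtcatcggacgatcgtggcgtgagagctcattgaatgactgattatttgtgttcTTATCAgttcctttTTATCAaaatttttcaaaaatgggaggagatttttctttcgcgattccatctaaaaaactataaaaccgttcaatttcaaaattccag
fat-7 (chrV:7153147-7153396, minus strand): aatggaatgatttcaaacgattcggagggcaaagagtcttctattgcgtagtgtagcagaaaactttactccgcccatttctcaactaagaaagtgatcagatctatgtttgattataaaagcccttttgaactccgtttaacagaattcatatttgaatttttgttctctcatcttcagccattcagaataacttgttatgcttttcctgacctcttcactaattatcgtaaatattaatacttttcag
The motif was present before 3 of the 10 genes, with 1 match for elo-2, 2 for elo-5 and 1 for fat-2, and none was found for fat-7 or elo-1. It was present in the same window of 27.1% of the 9489 genes of the RNA table that could be searched, so the share among the 10 genes was near that of the table. The forkhead motif GTAAACA was present before 2 of the 10 genes (fat-4 and elo-1) and 4.48% of all genes, and the E-box CACGTG before 1 (fat-1) and 5.15% of all genes, both counted on either strand. Only exact matches were counted. The annotated starts of elo-2, elo-5 and fat-7 lie 9, 15 and 15 bases before the start codon, and many C. elegans mRNAs receive their first bases by trans-splicing, so these windows need not hold the place where transcription begins.

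The elongase genes were lower in the mutants. elo-2, which encodes the palmitic acid elongase, had 21.7 and 20.7 CPM in the shared rpl pair against 53.4 to 83.4 CPM in the mIn1 controls. It had 16.1 and 27.9 CPM in rps-10(0)/+ against 33.6 to 95.2 in the tmC20 controls, and 9.12 and 10 CPM in rps-23(0)/+ against 37 to 81.4 in the tmC5 controls. Every mutant library was thus below every control library. Over all mutants against all controls, elo-2 fell 3.6-fold (log2 fold change -1.85, SE 0.29, edgeR adjusted p = 0.00212). Here and below, the fit over all mutants pooled their libraries as 1 group and all controls as another. It did not match mutants to the controls of their own balancer. Within balancers the log2 fold change was -2.59 in rps-23(0)/+ (SE 0.49, adjusted p = 0.028), -1.65 in the shared rpl pair (SE 0.47, adjusted p = 0.08) and -1.59 in rps-10(0)/+ (SE 0.47, adjusted p = 0.65). The rps-23(0)/+ call was lost without rps-23(0)/+ replicate 1 (-2.61, adjusted p = 0.382), rps-23(0)/+ replicate 2 (-2.73, adjusted p = 0.276), tmC5 day 3 replicate 2 (-2.37, adjusted p = 0.0557) or tmC5 day 4 replicate a (-2.44, adjusted p = 0.0536).

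elo-5, which encodes the branched-chain elongase, gave a similar picture. Its level was 17.7 and 27.9 CPM in the shared rpl pair against 49.3 to 83 in the mIn1 controls, 36.2 and 34.9 CPM in rps-10(0)/+ against 59.8 to 97.1 in the tmC20 controls, and 16 and 10 CPM in rps-23(0)/+ against 39.3 to 74.3 in the tmC5 controls. No mutant library reached the lowest control. elo-5 fell 2.69-fold over all mutants (log2 fold change -1.43, SE 0.27, adjusted p = 0.00849) and 4.42-fold in rps-23(0)/+ (log2 fold change -2.14, SE 0.38, adjusted p = 0.0185), while in the shared rpl pair the log2 fold change was -1.44 (SE 0.37, adjusted p = 0.0528) and in rps-10(0)/+ -1.12 (SE 0.36, adjusted p = 0.859). Without rps-23(0)/+ replicate 1 or replicate 2 the call in that mutant was lost (-2.59 and -1.91, adjusted p = 0.0957 and 0.257). The gene F41H10.3 overlaps elo-5 on the genome. The library kit marks strand, but whether the counting used it is not given in the sources used here.

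elo-1, the polyunsaturated fatty acid elongase gene, moved less. It had 160.5 and 148 CPM in the shared rpl pair against 209.7 to 291 in the mIn1 controls, 105 and 127 CPM in rps-10(0)/+ against 183 to 215 in the tmC20 controls, and 125 and 104 CPM in rps-23(0)/+ against 158 to 227 in the tmC5 controls. Each mutant lay below its own controls, although the highest mutant library exceeded the lowest control library of another balancer by a small margin. elo-1 fell 1.64-fold over all mutants (log2 fold change -0.72, SE 0.14, adjusted p = 0.0131). Its log2 fold changes within balancers, -0.60, -0.81 and -0.76 in the order above, did not pass the threshold (adjusted p = 0.158, 0.561 and 0.164).

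**Figure D2:**
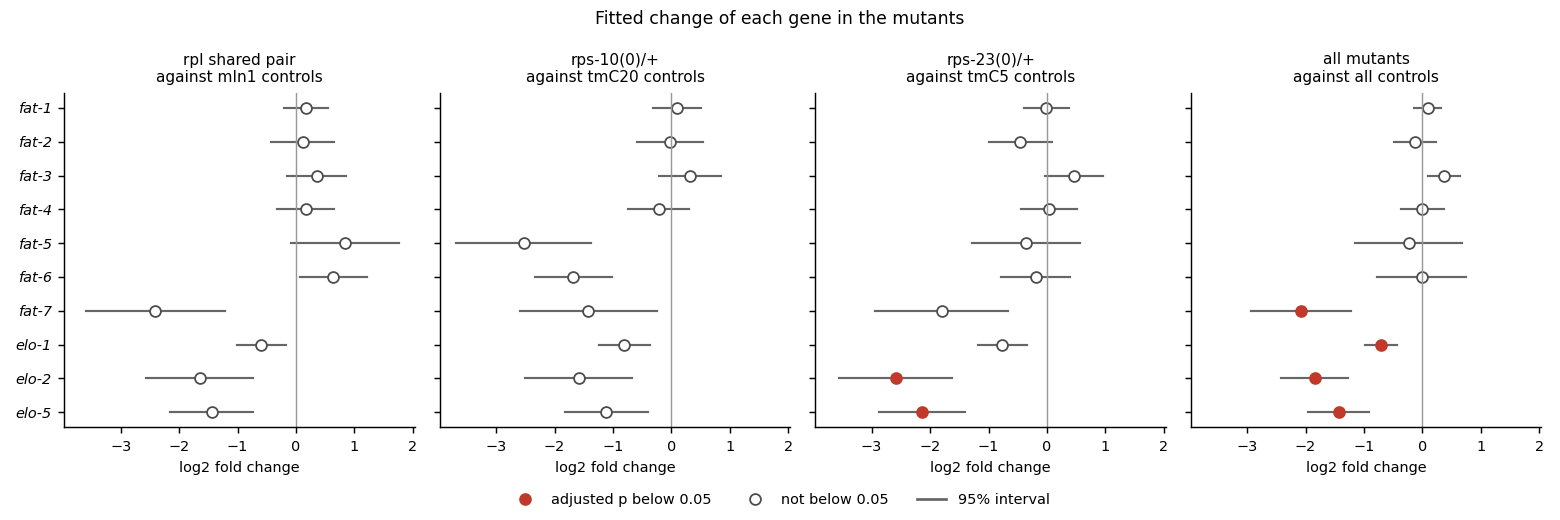
Log2 fold change of each gene with its 95% interval (normal approximation) in the 3 comparisons within balancers and in all mutants against all controls. Filled points have an adjusted p below 0.05, which holds for elo-2 and elo-5 in rps-23(0)/+ and for fat-7, elo-1, elo-2 and elo-5 over all mutants.

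The stearoyl-CoA desaturase gene fat-7 was low in all 6 mutant libraries (22 to 45.3 CPM) and ranged from 19.9 to 290.3 CPM over the controls. Its level was 45.3 and 33.1 CPM in the shared rpl pair against 171 to 290.3 in the mIn1 controls, and 40.3 and 35.7 CPM in rps-23(0)/+ against 104 to 166 in the tmC5 controls. In rps-10(0)/+ it was 22 and 25.4 CPM, against 33.7 CPM in the tmC20 day 3 library, 19.9 in the library shared by both days and 134 in the day 4 library, so that these groups overlapped. fat-7 fell 4.23-fold over all mutants (log2 fold change -2.08, SE 0.43, adjusted p = 0.018). The log2 fold change was -2.41 in the shared rpl pair (SE 0.61, adjusted p = 0.0528), -1.80 in rps-23(0)/+ (SE 0.58, adjusted p = 0.232) and -1.42 in rps-10(0)/+ (SE 0.60, adjusted p = 1). Against the tmC20 day 3 controls alone the rps-10(0)/+ value was -0.15 (adjusted p = 1), and against the day 3 controls of all balancers the value over all mutants was -1.77 (adjusted p = 0.15).

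fat-6, the other stearoyl-CoA desaturase gene, differed in level between the mutants. In the shared rpl pair it had 694 and 493 CPM, the latter barely above the mIn1 controls (271 to 492 CPM). In rps-10(0)/+ it had 69.9 and 77.2 CPM, less than any other library and well under the tmC20 controls (179 to 303 CPM). In rps-23(0)/+ it had 251 and 301 CPM, inside the range of the tmC5 controls (243 to 410.4 CPM). The fitted log2 fold changes were 0.63 in the shared rpl pair (SE 0.29, adjusted p = 0.257), -1.68 in rps-10(0)/+ (SE 0.34, adjusted p = 0.105) and -0.19 in rps-23(0)/+ (SE 0.30, adjusted p = 0.854). The change in rps-10(0)/+ minus that in the shared rpl pair was -2.31 (SE 0.44), with adjusted p = 0.064, and the test over all 3 mutant groups gave adjusted p = 0.142, so the difference did not pass the threshold with edgeR. With DESeq2 both the change of fat-6 in rps-10(0)/+ (log2 fold change -1.70, adjusted p = 0.000268) and the difference between the mutant groups (adjusted p = 0.00112) passed it. With edgeR fat-6 passed in rps-10(0)/+ against the day 3 controls alone (-1.82, adjusted p = 0.0381). The difference from the shared rpl pair also passed when tmC20 day 4 replicate 1 was left out (-2.45, adjusted p = 0.0445).

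fat-5, the palmitoyl-CoA desaturase gene, was also low in rps-10(0)/+, with 1.95 and 4.48 CPM against 11 to 25.8 in the tmC20 controls. The shared rpl pair had 48.2 and 17.6 CPM against 12.4 to 27 in the mIn1 controls, and rps-23(0)/+ had 19 and 31.2 CPM against 26 to 42.2 in the tmC5 controls, so these groups overlapped. The log2 fold change in rps-10(0)/+ was -2.53 (SE 0.59, adjusted p = 0.316) with edgeR and -2.58 (adjusted p = 0.0248) with DESeq2. The difference between the mutant groups had adjusted p = 0.342 with edgeR and 0.0366 with DESeq2. fat-5 overlaps twk-42 on the genome.

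As fat-6 and fat-7 act on the same substrate, their counts were also taken as a share. fat-7 made up 6.13% of the fat-6 plus fat-7 counts in the shared rpl pair replicate 1 (95% Wilson interval 4.62 to 8.07) and 6.29% in replicate 2 (4.49 to 8.74), against 25.8% to 43.4% in the mIn1 controls. The share was 13.8% and 10.6% in rps-23(0)/+ against 20.7% to 40.5% in the tmC5 controls, again without overlap. In rps-10(0)/+, where both genes were low, it was 23.9% and 24.8%, between the 10% and 8.26% of the tmC20 day 3 and shared libraries and the 42.8% of the tmC20 day 4 library. These intervals cover counting error only. The share was highest in the libraries with high oocyte and yolk RNA, tmC5 day 3 replicate 1 included (38.2%).

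**Figure D3:**
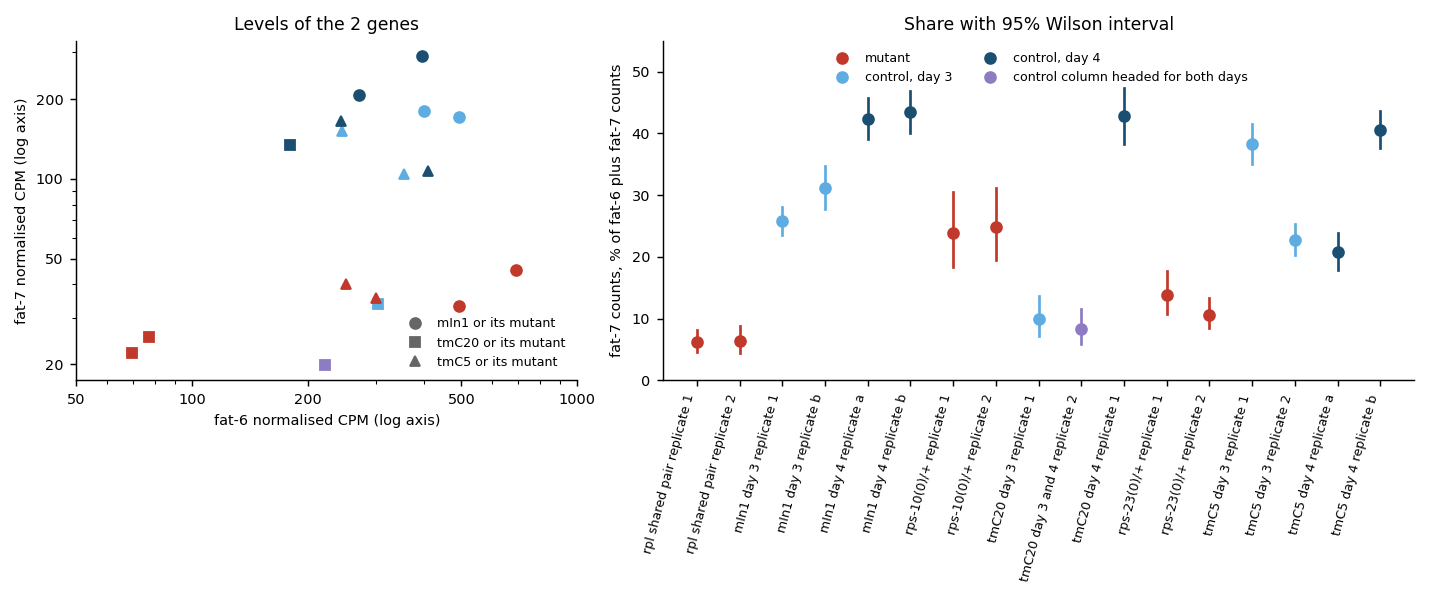
Left, fat-7 against fat-6 normalised CPM (log axes) in each library, with a symbol for each balancer. Right, fat-7 counts as a percentage of fat-6 plus fat-7 counts with 95% Wilson intervals, from 6.13% in the shared rpl pair to 43.4% in a mIn1 day 4 library.

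Of the desaturase genes further along the pathway, fat-1, fat-2 and fat-4 kept levels close to those of the controls. fat-2, the oleic acid desaturase gene, ran from 234 to 424 CPM in the 6 mutant libraries (median 267) and from 236 to 439.8 in the 11 controls (median 292). fat-1, the omega-3 desaturase gene, ran from 176 to 237 CPM in the mutants and from 156 to 253 in the controls. fat-4 ran from 110.4 to 229 CPM against 107 to 213. The mutant and control ranges of these genes overlapped, and their log2 fold changes over all mutants were -0.13 (95% interval -0.49 to 0.24), 0.09 (-0.14 to 0.32) and -0.00 (-0.37 to 0.37). fat-3 had 114 to 152 CPM in the mutants and 67 to 125 CPM in the controls. Its log2 difference over all mutants was 0.37 (SE 0.14, 95% interval 0.1 to 0.65), which did not pass the threshold (edgeR adjusted p = 0.184). The fat-3 values of 0.35 in the shared rpl pair and 0.47 in rps-23(0)/+ did not pass either (edgeR adjusted p = 0.445 and 0.55). In rps-10(0)/+ both libraries were below the tmC20 controls for fat-4 (mean 112 ± 1.82 CPM, n = 2, against 123 to 138) and above them for fat-3 (133 and 116 against 94 to 109 CPM), with log2 fold changes of -0.22 and 0.32 that did not pass either (adjusted p = 1 for both). Scaling by library totals in place of TMM moved the log2 median over all genes by -0.29 in the shared rpl pair, by -0.16 in rps-23(0)/+ and by -0.15 over all mutants. It turned the sign of fat-1 over all mutants (-0.07) and of fat-1, fat-2 and fat-4 in the shared rpl pair (-0.13, -0.17 and -0.13), none of which passed the threshold.

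Counted over the 10 genes, none passed the threshold in the shared rpl pair, where 2.54% of the 9276 genes tested did. None passed in rps-10(0)/+ either (0.129% of all genes), 2 passed in rps-23(0)/+, both lower (0.625%), and 4 passed over all mutants, all lower (1.91% of 8546 genes). At an unadjusted p below 0.05 the counts were 5, 6, 4 and 5 of the 10 genes, against 1783, 295, 1031 and 1657 of all genes tested. DESeq2 called 3 genes in the shared rpl pair (6.78% of all genes by that tool), 2 in rps-10(0)/+ (0.367%) and 3 in rps-23(0)/+ (1.69%), where elo-1 passed besides elo-2 and elo-5 (-0.80, adjusted p = 0.0167). Limma voom called 1 in the shared rpl pair (2.67%) and 0 in rps-10(0)/+ (0.0862%). Every mutant library was below every control of its balancer for 4 genes in the shared rpl pair (13.2% of all genes), 6 in rps-10(0)/+ (8.53%) and 4 in rps-23(0)/+ (8.45%). Both mutant libraries were above every control for 2 genes in the shared rpl pair, fat-3 and fat-6 (17.2% of all genes), and for 1 in rps-10(0)/+, fat-3 (11.2%). For 2 genes, elo-2 and elo-5, all mutant libraries were below all controls (0.351%). The median log2 fold change of the 10 genes was -0.18 over all mutants, where that of all genes was -0.02. The difference between the 3 mutant groups passed for none of the 10 genes with edgeR (0.0216% of all genes). It passed for 2 with DESeq2 (0.712%) and for 0 with limma voom (0.00%).

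Other calls also depended on single libraries. In rps-23(0)/+, fat-7 passed without tmC20 day 4 replicate 1 (-1.80, adjusted p = 0.0124). When both tmC5 libraries with markers of the other day were left out, rps-23(0)/+ had elo-2 at -2.74 (adjusted p = 0.0765) and elo-5 at -2.16 (adjusted p = 0.0665). Over all mutants the 4 calls remained without any 1 of the 17 libraries, with fat-7 nearest to the threshold (highest adjusted p = 0.0491), although fat-7 did not pass with limma voom (-1.89, adjusted p = 0.066). In the shared rpl pair, elo-5 passed without tmC20 day 3 replicate 1 (adjusted p = 0.0489) and without tmC5 day 4 replicate b (0.0393), fat-7 and elo-2 without the tmC20 library shared by both days (0.0233 and 0.0437), and fat-7 and elo-5 without tmC20 day 4 replicate 1 (0.00173 and 0.0434).

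The levels are set beside the stage of the animals in the plot against oocyte and yolk RNA. Against the day 3 controls alone, elo-2 and elo-5 were lower over all mutants by log2 fold changes of -1.86 and -1.59 (adjusted p = 0.0175 and 0.034), and against the day 4 controls alone by -1.78 and -1.33 (adjusted p = 0.0408 and 0.0586). In fits to a single control day, here and elsewhere, controls were chosen by the day in the heading. The day 3 set thus held tmC5 day 3 replicate 1 (74434 CPM of oocyte and yolk genes) and the day 4 set tmC5 day 4 replicate a (3881 CPM). The tmC20 library shared by both days was in both sets, so these sets do not separate larvae from adults cleanly. The molting genes of the larval epidermis (13 of 14 listed genes in the table, none at 0) summed to between 6238 and 20994 CPM in the mutants and between 846 and 11709.8 CPM in the controls. The intestine genes (8 of 10, none at 0) summed to 7911 and 8891 CPM in the shared rpl pair, below the mIn1 day 3 libraries (11168 and 9921 CPM) and above the mIn1 day 4 libraries (4985 and 4651 CPM). They summed to 6945 and 6224 CPM in rps-10(0)/+, against 8223 and 7649 CPM in the tmC20 day 3 and shared libraries and 3879 CPM in the day 4 library. In rps-23(0)/+ the sum was 6712 and 6817 CPM, against 8611 and 8309 CPM in the tmC5 controls with little oocyte and yolk RNA and 3900.4 and 4091 CPM in those with much. In each mutant the CPM sum of these 8 genes was thus below that of its controls with larval markers and above that of those with adult markers. The sum is a share of the library and does not measure the amount of intestine RNA. Germline genes (10 of 10, none at 0) summed to 812 and 1184 CPM in the shared rpl pair, below all mIn1 controls (1209 to 4943 CPM), and to 2223 to 3003 CPM in the other mutants, within their controls. Body wall muscle genes (7 of 8, none at 0) summed to 12082 to 20638 CPM in the mutants and 5539 to 17248 CPM in the controls, and sperm genes (26 of 32, none at 0) to 116 to 621 CPM and 69.3 to 696 CPM. Beyond these values, the part of stage and tissue makeup in the changes of the 10 genes was not tested.

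**Figure D4:**
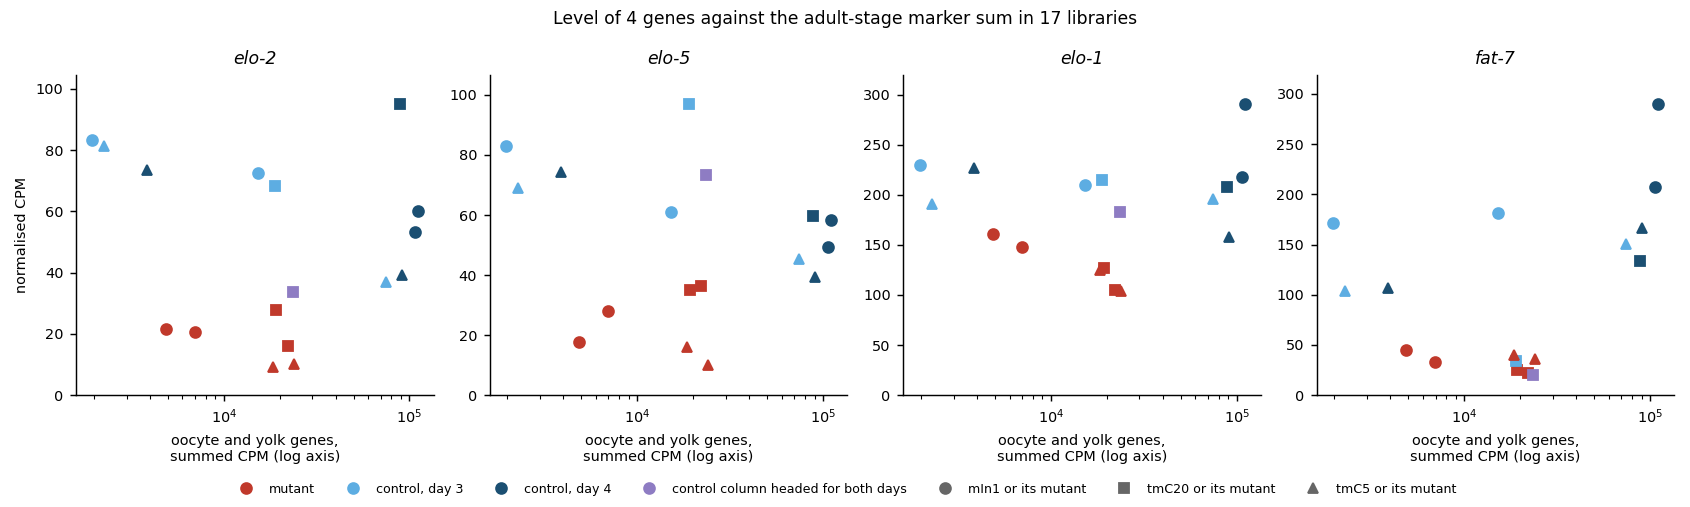
Normalised CPM of elo-2, elo-5, elo-1 and fat-7 against the summed CPM of the 16 oocyte and yolk genes (log axis) in each library. The mutant points (4873 to 23943 CPM of oocyte and yolk genes) lie below the controls for elo-2 and elo-5 at every marker level, while the 2 tmC20 libraries with 33.7 and 19.9 CPM of fat-7 lie among the mutants.

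Between the ages of the controls, no gene of the 10 passed the threshold with edgeR (0.0850% of 9416 genes), with 1 of them and 2545 of all genes at an unadjusted p below 0.05. That gene was fat-7, at a day 4 minus day 3 log2 difference of 0.86 (SE 0.21, adjusted p = 0.16), which DESeq2 called (0.90, adjusted p = 0.0383), as it did 5.63% of all genes, and limma voom did not. It was 171 and 181 CPM at day 3 and 290.3 and 207 CPM at day 4 in the mIn1 controls, and 33.7 against 134 CPM in the tmC20 controls, but 151 and 104 against 107 and 166 CPM in the tmC5 controls. fat-7 passed without tmC5 day 3 replicate 1 (1.03, adjusted p = 0.0162) and without tmC5 day 4 replicate a (0.96, adjusted p = 0.0152). With both of these libraries left out, fat-7 was higher at day 4 (1.13, adjusted p = 2.99e-05) and fat-2, fat-6 and elo-5 were lower (-0.40, -0.50 and -0.58, adjusted p = 0.0379, 0.0238 and 0.0153). These 4 of 10 genes compare with 59.6% of all genes called in that setting.

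Between balancers, none of the 10 genes passed in tmC20 against mIn1 (0.0755% of all genes), in tmC5 against mIn1 (0.00%) or in tmC5 against tmC20 (0.00%) with edgeR. The numbers of the 10 genes at an unadjusted p below 0.05 were 3, 0 and 1, against 765, 238 and 848 of all genes. DESeq2 and limma voom called none of the 10 either. fat-7 was at -1.75 in tmC20 against mIn1 (SE 0.49, adjusted p = 0.318). Without tmC20 day 4 replicate 1 this became -2.99 (adjusted p = 0.00406), and tmC5 against tmC20 became 2.31 (adjusted p = 0.0059).

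Other genes that work with these enzymes were followed as lists. Of 9 further genes listed with the elongation cycle, 4 fell over all mutants and none rose, where 1.91% of all genes passed in either direction. The 4 include acs-1, which does not encode an enzyme of the cycle itself. The list median was -0.41 and that of all genes -0.02. elo-6, the partner of elo-5 in branched-chain fatty acid synthesis, had 24 to 53.2 CPM in the mutants and 71.7 to 149.6 CPM in the controls (log2 fold change -1.51, SE 0.21, adjusted p = 0.000633). acs-1, the acyl-CoA synthetase of the same branch, had 66.9 to 126 CPM against 136 to 195 (-0.99, SE 0.15, adjusted p = 0.00132). Neither gene had a mutant library inside the control range. hpo-8, whose product is related to the dehydratase of the elongation cycle, was at -0.83 (SE 0.16, adjusted p = 0.0109). These 3 calls held without any 1 library. The other call was let-767, a ketoacyl-CoA reductase gene named here after its value was seen (-0.67, SE 0.16, adjusted p = 0.0389), which was lost in 5 of 17 leave-outs (highest adjusted p = 0.0806, without rps-23(0)/+ replicate 2). Within balancers elo-6 passed in rps-23(0)/+ (26.6 and 24 CPM against 71.7 to 133, adjusted p = 0.0101) but not without either of its mutant libraries (adjusted p = 0.107 and 0.157). acs-1 passed in rps-23(0)/+ (-1.1, SE 0.20, adjusted p = 0.0228) and rps-10(0)/+ (-1.21, SE 0.21, adjusted p = 0.0429), but these calls were lost in 4 and 14 of 17 leave-outs (highest adjusted p = 0.303 without rps-23(0)/+ replicate 1 and 1 without rps-10(0)/+ replicate 1). elo-5 and elo-6 lie 9511 bases apart on the same strand.

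Of 3 genes of the electron supply to desaturases, hpo-19 fell over all mutants (-0.67, SE 0.12, adjusted p = 0.00742), and it did so without any 1 library. Its call in the shared rpl pair (-0.84, SE 0.20, adjusted p = 0.0401) was lost in 13 of 17 leave-outs (highest adjusted p = 0.47, without rpl replicate 1). Of 8 genes of phosphatidylcholine synthesis 2 passed over all mutants, both lower. The methyltransferase gene pmt-2 (-1.32, SE 0.22, adjusted p = 0.00388) passed without any 1 library, but the phosphotransferase gene cept-1 (-1.18, SE 0.29, adjusted p = 0.0447) lost its call in 13 of 17 leave-outs (highest adjusted p = 0.126, without rpl replicate 1).

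Of 22 fatty acid oxidation genes tested over all mutants, 1 fell and 1 rose. The hydroxyacyl-CoA dehydrogenase gene hacd-1 had 10.9 to 37.6 CPM in the controls and 0 to 5.38 CPM in the mutants (-3.12, SE 0.44, adjusted p = 0.000633) and passed without any 1 library. The carnitine palmitoyltransferase gene cpt-1 was higher (0.80, SE 0.18, adjusted p = 0.0236), with its call lost in 5 of 17 leave-outs (highest adjusted p = 0.0861, without rpl replicate 1). Among 19 genes of fatty acid activation and binding, 2 passed over all mutants, both higher. The call of the acyl-CoA synthetase gene acs-7 (1.67, SE 0.37, adjusted p = 0.0236) was lost without rpl replicate 1 or 2 (adjusted p = 0.115 and 0.0624). That of the lipid-binding protein gene lbp-5, named after its value was seen (1.21, SE 0.29, adjusted p = 0.0413), was lost in 11 of 17 leave-outs (highest adjusted p = 0.156, without rpl replicate 1). In the shared rpl pair 3 genes of this list were called higher and 1 lower, where 2.54% of all genes passed. Among them were the lipid-binding protein gene lbp-9 (1.33, SE 0.30, adjusted p = 0.0343), lost in 11 of 17 leave-outs (highest adjusted p = 0.422, without rpl replicate 1), and the synthetase gene acs-4 (-1.23, SE 0.23, adjusted p = 0.0124), lost without rpl replicate 1 (-0.91, adjusted p = 0.233). None of 6 fatty acid synthesis genes and none of 10 fat storage genes passed over all mutants. The lipase gene lipl-5 was lower in rps-10(0)/+ (-2.28, SE 0.36, adjusted p = 0.0281), a call lost in 4 of 17 leave-outs (highest adjusted p = 0.619, without rps-10(0)/+ replicate 2).

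None of 12 regulators of desaturase genes tested over all mutants passed the threshold, with a list median of -0.05. sbp-1, which encodes the sterol regulatory element-binding protein, was at 0.31 (SE 0.20, adjusted p = 0.356), and the Mediator subunit gene mdt-15 was at -0.04 (SE 0.17, adjusted p = 0.917). The nuclear hormone receptor genes nhr-49 and nhr-80, whose products are known to promote desaturase expression, were at -0.06 (SE 0.11, adjusted p = 0.738) and 0.17 (SE 0.38, adjusted p = 0.8). These are RNA levels of the regulators and carry no information on their activity.

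Across the 17 libraries, which share their depth and their groups, the members most alike in log2 CPM were elo-2 and elo-5 (Pearson r = 0.89), followed by elo-1 with elo-2 (0.86), fat-6 with fat-4 (0.83) and fat-2 with fat-4 (0.82). fat-7 was most like elo-1 (0.72), and least like fat-3 (-0.41). Of 9266 genes outside the list, those most like fat-7 were inx-3 and hpo-19 (both 0.88) and cdc-25.2 (0.85). Those most like fat-6 were ilys-5 (0.88), ftn-2 and C17F4.7 (both 0.87), and those most like fat-2 were twk-18 (0.92), K09G1.1 (0.89) and K08D8.6 (0.88).

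Ribosome footprints were too few to show a change in any of the 10 genes. The 20 libraries used held 1081 to 9637 counts, and all 10 genes together had 36 counts of 30234 in the mutants and 55 of 35775 in the controls. None of the 10 genes was among the 49 genes with enough counts for the test. With no filter on low counts edgeR called none of them (lowest adjusted p = 0.939). Among the tests of the 10 genes in each of the 4 mutants, 2 had an unadjusted p below 0.05. That is no more than the share of 0.05 that such a cut-off passes where nothing changes. The most counted case was fat-6, with 18 footprint counts in the rpl-5 and rpl-33 mutants (2 to 7 a library, 20139 in all) and 5 in the mIn1 controls (1 or 2 a library, 16068 in all). In rps-10(0)/+ it had 0 of 6405 counts, against 1 of 10282 in the tmC20 controls. A change in translation was therefore not detectable at this depth.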

How the data were processed

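RNA-seq and ribosome profiling counts of whole C. elegans were used. Using RiboFlow and the transcriptome of WBcel235, the authors made the deposited tables, which hold raw RNA counts and, for Ribo-seq, counts of fragments of 26 to 34 bases after molecular identifiers were collapsed. RNA libraries held 1017787 to 2384186 counts. A further 6 Ribo-seq columns, each identical to a used one, were left out. The 17 distinct RNA libraries were tested with the quasi-likelihood test of edgeR 4.0.16 (R 4.3.3) after filterByExpr and TMM, with mutants and balancers as groups in 1 fit, ages in another and mutants against controls in another. Each SE was the log2 fold change divided by the square root of the F statistic of edgeR. The 95% intervals of log2 fold changes took this SE with a normal distribution, which makes them somewhat narrow for so few libraries. The p-values were adjusted by Benjamini-Hochberg over all genes tested, and the threshold was 0.05. DESeq2 1.42.0, limma 3.58.1, other scalings and filters, control ages alone, a replicate block and leaving out each library were alternatives. Pairing of numbered replicates was checked by correlating the differences of replicates 1 and 2 between groups (-0.04 to 0.04), which gave no pairing. Only the edgeR steps of the fit with mutants and balancers as groups were run on simulated data, for rps-23(0)/+ against the tmC5 controls. The genes, lists and tests were chosen with earlier results of these data known. Named were all 10 genes, up to 3 called genes a list by adjusted p, 4 regulators and the 3 genes most like fat-2, fat-6 and fat-7.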

Additional observations from a re-analysis of the deposited data

Results flagged for a closer look

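Among the 20 pairs of a gene and a control group of 4 libraries (mIn1 and tmC5), 2 held a library far from the other 3 by the gap test of Dixon, and chance flags about 1 in 20 such groups. fat-1 was at 158 CPM in tmC5 day 4 replicate b, against 189.8 to 194 in the other tmC5 controls. fat-3 was at 82.8 CPM in mIn1 day 4 replicate b, against 120.3 to 125 in the other mIn1 controls.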

How the results depend on the processing

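For the 10 genes, 3653 alternative values stayed on their side of the threshold, 44 newly passed, 29 no longer passed, and none reversed a call. Most that stayed had not passed in the main fit, and all 29 losses fell on its few calls. In rps-23(0)/+, elo-2 lost its call in 10 and elo-5 in 7 of 30 alternatives each. Over all mutants the call was lost in 4 of 28 alternatives for fat-7, 4 for elo-1, 3 for elo-5 and 1 for elo-2. For 19 other named genes or genes called in their lists, 1969 values stayed, 29 newly passed and 223 no longer passed. All 223 losses fell on their 25 calls, of which 6 held in every leave-out of 1 library. elo-2 over all mutants ranged from -2.03 to -1.74. The share of all genes called also moved with the setting. In the shared rpl pair it was 2.54% with edgeR, 6.78% with the DESeq2 test and 2.67% with limma voom. For age it was 0.0850% with edgeR and 59.6% without the 2 tmC5 libraries with markers of the other day. The counts below therefore show only how far calls depended on the setting. Of the 10 genes, those called in the shared rpl pair numbered 1 with DESeq2 size factors, 3 with library totals, 1 with no filter, 1 with at least 10 counts in every library, 3 with the DESeq2 test, 1 with limma voom, 2 with day 3 and 1 with day 4 controls alone, 1 with each age its own group, and 0 to 2 without single libraries. In rps-10(0)/+, 2 were called by DESeq2 and 1 with day 3 controls alone. In rps-23(0)/+ the count was 3 with DESeq2 (elo-1 gained), with day 3 controls alone and with each age its own group (fat-7 gained, adjusted p = 0.0171 and 0.0158), 1 with limma voom and 0 with day 4 controls alone, with each mutant fitted alone, or without both doubtful tmC5 libraries, an alternative added after seeing the data, and 0 to 3 without single libraries. Over all mutants it was 2 with either control day alone. DESeq2 called 2 for the difference between mutants and 1 for age, which was 4 without both doubtful tmC5 libraries. Without single libraries the count was 0 to 1 for age, for tmC20 against mIn1 and for tmC5 against tmC20. In the numbered columns, the replicate block left 0 calls in rps-23(0)/+ and 0 over all mutants, and the same columns without it, added after seeing the data, 0 and 1, so fewer libraries also enter. No replicate block could be fitted for age. Other causes were not tested. Depth limits Ribo-seq.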
